A study of Homo sapiens with 6 samples.

Results

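The genes described here encode splicing factors of the SR, hnRNP, SF3, U2AF, PTBP, RBFOX2 and MBNL families, measured in Huh-7 cells that overexpressed ALKBH5 and in control cells. Members were taken by symbol. They were every gene named SRSF or SF3A/SF3B followed by a number, every gene whose symbol began with HNRNP and a further letter, and TRA2A, TRA2B, U2AF1, U2AF2, PTBP1 to PTBP3, RBFOX2 and MBNL1 to MBNL3. This gave 57 of 18030 genes and 396 of 80668 transcripts: 14 SR genes (TRA2A and TRA2B included), 25 hnRNP genes, 9 SF3 genes, 2 U2AF genes, 3 PTBP genes, and 4 genes in the group of RBFOX2 and the MBNL genes.

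Huh-7 is a human hepatocellular carcinoma line, and ALKBH5 is an enzyme that takes the methyl group off N6-methyladenosine (m6A) in RNA. There were 3 oeALKBH5 libraries (genotype labelled ALKBH5 overexpression, from cells electroporated with an ALKBH5 plasmid and harvested 60 h later) and 3 control libraries (genotype labelled WT). The labels give all 6 the same treatment text and the same "Untreated" entry. For control as for oeALKBH5 libraries they list 60 h and 3 pulses of 1250 V and 20 ms. The design line calls the control parental, so whether control cells were electroporated is not clear. Titles number the libraries as biological replicates, but none states separate cultures or transfections, so the p-values given reflect how these libraries scattered, which may be in part technical.

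Splicing factors decide which exons of a pre-mRNA are kept. SR proteins bind exonic enhancers and recruit the spliceosome, hnRNP proteins often oppose them or loop exons out, and the SF3A and SF3B complexes hold the U2 snRNP at the branch point next to the U2AF dimer, which reads the polypyrimidine tract and the 3′ splice site. PTBP, RBFOX and MBNL proteins are tissue-dependent regulators of alternative exons. Several members are linked to m6A: HNRNPC and HNRNPA2B1 have been described as binding at or near m6A sites, and SRSF3 as a partner of the nuclear m6A reader YTHDC1.

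Libraries held 18607084 to 18826479 estimated counts in oeALKBH5 and 19265686 to 19378030 in control. ALKBH5 itself had 168.8, 133.0 and 110.4 CPM (counts scaled by TMM-adjusted library size) in oeALKBH5 libraries, against 70.5, 74.2 and 75.5 CPM in control libraries, a log2 fold change of 0.90 (SE 0.177, edgeR quasi-likelihood adjusted p = 0.0154). Leaving out control replicate 2 or 3 gave log2 fold changes of 0.91 and 0.92 that did not pass (adjusted p = 0.0529 and 0.0589). Deposited counts cannot tell plasmid ALKBH5 mRNA from the cell's own. The first principal component held 67.3% of the variance and parted the groups, at -20.81 to -13.91 for oeALKBH5 and 16.66 to 17.79 for control libraries. On the second, which held 11.1% of the variance, oeALKBH5 replicate 1 stood at 12.93. The other oeALKBH5 replicates stood at -4.84 and -10.42, and control libraries at 0.25 to 1.39. Of 12 hepatocyte and Huh-7 markers all were detected, 0 were higher (0 also at an unadjusted p under 0.05 and in DESeq2) and 10 lower in edgeR, with a summed level of 22697 to 24307 CPM in oeALKBH5 and 34460 to 35008 CPM in control. The summed levels of marker lists for other cells were 29.6 to 30.6 CPM in oeALKBH5 and 22 to 23.5 CPM in control for fibroblasts, 11.6 to 12.3 and 17.5 to 21.3 CPM for endothelium, 133.0 to 157.8 and 141.3 to 145.0 CPM for blood cells, and 192.2 to 226.1 and 225.7 to 229.6 CPM for cholangiocytes, with no listed marker at 0. Mean levels were under 1 CPM for 3 of 7 fibroblast, 4 of 5 endothelial, 3 of 6 blood and 0 of 4 cholangiocyte markers. Several of these sums thus rest on few genes. The part of the marker shifts in the values below was not tested. In bulk RNA, fewer cells of a kind and less RNA per cell cannot be told apart.

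The splicing factors changed in both directions and by small amounts. Of the 53 members that passed the filter on low counts, 13 rose and 13 fell in oeALKBH5 cells at an edgeR adjusted p under 0.05, and 27 did not pass, so that 49.1% were called beside 42.8% of all 14168 genes tested (20.8% higher and 22.0% lower). HNRNPH1, HNRNPH3, MBNL2, MBNL3, SRSF2 and SRSF6 rose, and SF3B5, SRSF8, SF3A3, HNRNPM and HNRNPL fell. The median absolute log2 fold change was 0.14 among tested members and 0.19 among all tested genes, and the median signed value was -0.04 among members and 0.01 among all genes. With library size alone as the scaling, 19 members were higher and 8 lower, beside 30.1% and 14.4% of all genes. In the authors' FPKM (a level per length of transcript and per library depth), tested with limma on log2(FPKM + 1), 18 members were higher and 8 lower, beside 29.4% and 16.5% of all 12016 genes tested. The members not tested were HNRNPCL1, HNRNPCL2, HNRNPCL3 and HNRNPCL4, close relatives of HNRNPC, which held 0 to 3 counts in each library.

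The members together took 1.387, 1.458 and 1.497% of all estimated counts in oeALKBH5 libraries, against 1.333, 1.378 and 1.366% in control libraries. These shares carry no TMM scaling. With it, the summed level overlapped between the groups, at 13482, 14074 and 14710 CPM in oeALKBH5 libraries, against 13803, 14071 and 14050 CPM in control libraries. Levels did not overlap between the groups in 34 of the 53 tested members, which included all 26 called ones, beside 52.8% of all tested genes. Of the 26 calls, 16 (8 higher and 8 lower) were kept under every alternative of the gene test, and no call changed sign under any of them. The calls lost under another scaling were those of HNRNPA1L2, SF3B1, SRSF4, SRSF5 and HNRNPDL, all lower in the TMM fit, and the same 5 were not called in FPKM.

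**Figure D1:**
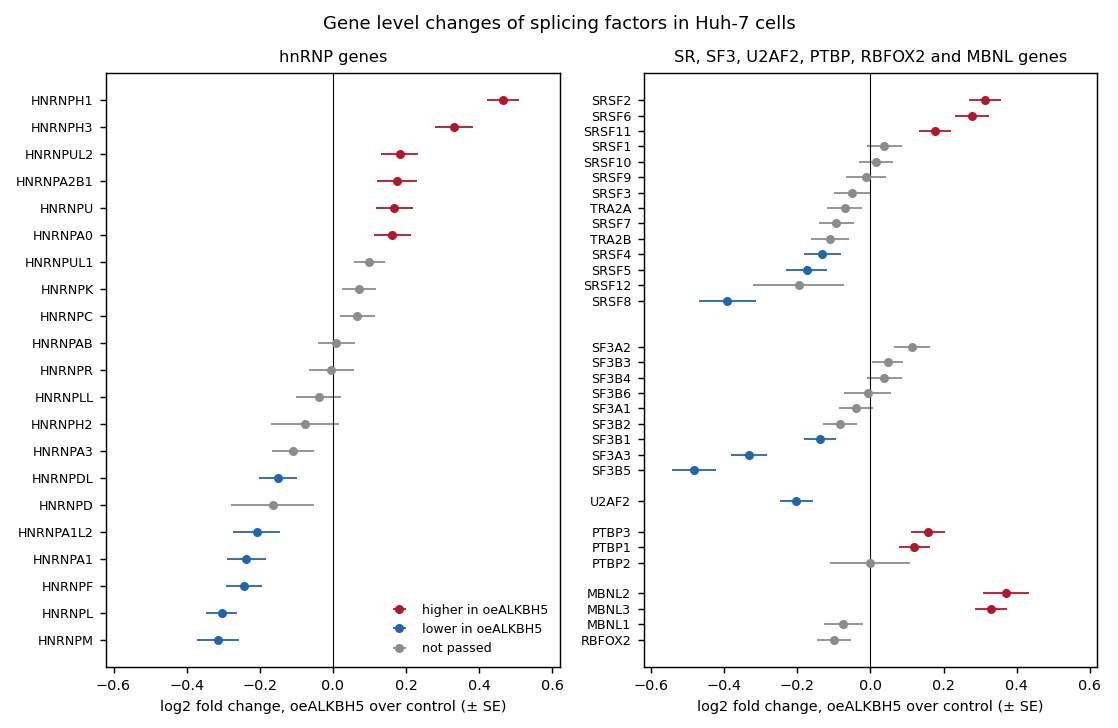
Log2 fold change of each tested member, oeALKBH5 over control, with its standard error, as 1 point per gene from the edgeR fit (3 libraries in each group). Red points were higher, blue points lower and grey points did not pass. U2AF1 is left out because its counts were shared with a near-identical gene entry of the reference. HNRNPH1 has the highest value, 0.46, and SF3B5 the lowest of those drawn, -0.48.

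Among SR genes, 3 rose (SRSF2, SRSF6 and SRSF11), 3 fell (SRSF8, SRSF5 and SRSF4) and 8 of the 14 did not pass (42.9% called, the same as the 42.8% of all genes), with a median log2 fold change of -0.06. With library size alone 3 were higher and 1 lower (beside 30.1% and 14.4% of all genes), and in FPKM likewise 3 and 1 (beside 29.4% and 16.5%). SRSF2, also known as SC35, a constituent of nuclear speckles that binds exonic enhancers, is at chr17:76734115-76737374 (GRCh38, minus strand). It had 381.5, 376.0 and 391.3 CPM in oeALKBH5 libraries, against 316.8, 302.7 and 305.1 CPM in control libraries (log2 fold change 0.31, SE 0.0438, edgeR adjusted p = 1.1e-05). Every oeALKBH5 library lay above every control library. It is the most abundant SR gene per length, with 204.4 FPKM in oeALKBH5 and 153.8 FPKM in control. The exons of MFSD11 on the opposite strand cover 34.7% of the exonic bases of SRSF2 in GENCODE 29. Whether the counting used strand is not given in the sources used here, and MFSD11 had 10.19, 12.56 and 12.99 CPM in oeALKBH5, against 14.18, 13.83 and 14.07 CPM in control (log2 fold change -0.24, edgeR adjusted p = 0.0521).

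SRSF6 (chr20:43457928-43464247, plus strand), an SR protein with a pair of RNA recognition motifs, had 335.4, 352.5 and 357.7 CPM in oeALKBH5 libraries, against 275.4, 294.4 and 293.0 CPM in control libraries. Its log2 fold change was 0.28 (SE 0.0462, edgeR adjusted p = 7.59e-05), and the groups were apart. SRSF11 (chr1:70205682-70253052, plus strand), an SR-related protein formerly called p54, had 185.8, 184.8 and 177.8 CPM in oeALKBH5 libraries, against 165.2, 159.7 and 160.3 CPM in control libraries (log2 fold change 0.18, SE 0.0449, edgeR adjusted p = 0.00352). The 3 genes that rose kept their calls under every alternative of the gene test.

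SRSF8 (chr11:95067197-95071224, plus strand), a close relative of SRSF2 that arose by retroposition and is expressed at a low level, fell. It had 13.9, 13.8 and 15.1 CPM in oeALKBH5 libraries, against 19.3, 18.3 and 18.5 CPM in control libraries (log2 fold change -0.39, SE 0.078, edgeR adjusted p = 0.000451). SRSF2 and SRSF8 thus moved in opposite directions, and both calls were kept under every alternative of the gene test. Estimated counts divide reads between similar transcripts by a model, which bears on close relatives of this kind. SRSF5 had 126.2, 139.3 and 152.4 CPM in oeALKBH5 libraries, against 157.1, 155.0 and 159.6 CPM in control libraries (log2 fold change -0.17, SE 0.0568, edgeR adjusted p = 0.0182). SRSF4 had 64.2, 65.2 and 66.2 CPM in oeALKBH5 libraries, against 70.7, 73.2 and 70.4 CPM in control libraries (log2 fold change -0.13, SE 0.0498, edgeR adjusted p = 0.0389). Both were lower in every oeALKBH5 library than in any control library, but both calls were lost with library size alone (adjusted p = 0.169 for SRSF5 and 0.418 for SRSF4), and SRSF4's also in DESeq2 (adjusted p = 0.0801). With 1 library left out, SRSF5's call was lost without control replicate 1 or 3 or oeALKBH5 replicate 1 or 2 (adjusted p = 0.0611, 0.0668, 0.0572 and 0.0625). Leaving out oeALKBH5 replicate 1 brought the log2 fold change of SRSF5 to -0.11. SRSF4's was lost without control replicate 1, 2 or 3 or oeALKBH5 replicate 1 or 2 (adjusted p = 0.066, 0.151, 0.0819, 0.0645 and 0.104).

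SRSF3, the smallest classical SR protein, had 276.6, 288.9 and 313.7 CPM in oeALKBH5 libraries, against 295.8, 296.9 and 317.0 CPM in control libraries. The groups overlapped (log2 fold change -0.05, SE 0.0507, edgeR adjusted p = 0.458). The other SR genes that did not pass were SRSF1, SRSF7, SRSF9, SRSF10, SRSF12, TRA2A and TRA2B, with log2 fold changes from -0.20 (SRSF12) to 0.04 (SRSF1). SRSF12 was the least abundant of them, at 1.66 FPKM in oeALKBH5 and 1.78 FPKM in control. TRA2B was called lower with the replicate block (edgeR adjusted p = 0.0355). Without oeALKBH5 replicate 3, TRA2B (0.0456) and SRSF7 (0.0407) were called lower.

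The hnRNP genes divided evenly, with 6 higher and 6 lower of the 21 tested (57.1% called, beside 42.8% of all genes tested). Their median log2 fold change was -0.0044. With library size alone 9 were higher and 4 lower (beside 30.1% and 14.4% of all genes), and likewise in FPKM (beside 29.4% and 16.5%). The largest rise was that of HNRNPH1 (chr5:179614178-179634784, minus strand), which binds runs of guanines in introns and exons. It had 610.1, 640.3 and 594.7 CPM in oeALKBH5 libraries, against 438.2, 453.1 and 445.8 CPM in control libraries. Every oeALKBH5 library held more than any control library, and the level was 1.38-fold higher (log2 fold change 0.46, SE 0.0445, edgeR adjusted p = 8.36e-08, in a range of 2.14e-25 to 1.59e-05 over the alternatives). HNRNPH3 (chr10:68331174-68343191, plus strand), a relative that lacks the first RNA-binding domain of the H and F proteins, had 127.0, 139.5 and 139.2 CPM in oeALKBH5 libraries, against 101.1, 111.1 and 110.3 CPM in control libraries (log2 fold change 0.33, SE 0.0526, edgeR adjusted p = 4.55e-05).

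The other members of the H and F group did not follow these. HNRNPF (chr10:43385617-43409166, minus strand), which also binds guanine runs, had 185.3, 176.4 and 199.0 CPM in oeALKBH5 libraries, against 220.9, 219.0 and 224.0 CPM in control libraries. It fell by 0.24 on the log2 scale (SE 0.0487, edgeR adjusted p = 0.000457), with the groups apart. HNRNPH2 had 16.3, 15.6 and 17.2 CPM in oeALKBH5 libraries, against 20.1, 15.3 and 16.3 CPM in control libraries, and did not pass (log2 fold change -0.08, edgeR adjusted p = 0.54). The readthrough gene RPL36A-HNRNPH2 on the same strand shares 16.3% of the exonic bases of HNRNPH2. That entry had 51.14, 59.42 and 60.21 CPM in oeALKBH5 libraries, against 65.01, 77.6 and 74.37 CPM in control libraries. It was lower (log2 fold change -0.35, edgeR adjusted p = 0.00117), and how reads were divided between these entries was not tested. HNRNPH1, HNRNPH3 and HNRNPF kept their calls under every alternative of the gene test.

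The A and B group, to which the most abundant hnRNP genes belong, also moved both ways. HNRNPA1 (chr12:54280193-54287088, plus strand), which binds splicing silencers, had 1049, 1131 and 1240 CPM in oeALKBH5 libraries, against 1309, 1378 and 1343 CPM in control libraries. It fell in oeALKBH5 (log2 fold change -0.24, SE 0.0531, edgeR adjusted p = 0.00135), and the groups did not overlap. HNRNPA2B1 (chr7:26173057-26201529, minus strand) had 1030, 1147 and 1221 CPM in oeALKBH5 libraries, against 963.1, 1028 and 1018 CPM in control libraries. It rose (log2 fold change 0.18, SE 0.0547, edgeR adjusted p = 0.0149), the lowest oeALKBH5 library lying just above the highest control library. Leaving out control replicate 1 (adjusted p = 0.0925) or oeALKBH5 replicate 2 (0.0541) ended that call. CBX3 on the opposite strand overlaps 2.35% of its exonic bases, and was itself higher (log2 fold change 0.18, edgeR adjusted p = 0.0146). Per length, HNRNPA2B1 averaged 492.6 FPKM in oeALKBH5 and 416.1 FPKM in control, while HNRNPA1 averaged 491.1 FPKM in oeALKBH5 and 552.5 FPKM in control. These 2 genes headed the order of FPKM levels over all 57 members, in front of HNRNPC, HNRNPK and HNRNPH1.

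HNRNPA0 had 186.4, 174.0 and 198.6 CPM in oeALKBH5 libraries, against 166.9, 166.2 and 166.3 CPM in control libraries. It rose (log2 fold change 0.16, SE 0.05, edgeR adjusted p = 0.0125), but did not pass once control replicate 2 was left out (adjusted p = 0.0519). HNRNPA1L2, an intronless copy of HNRNPA1 whose reads are hard to tell from it, had 59.1, 50.8 and 54 CPM in oeALKBH5 libraries, against 60.1, 68.5 and 60.8 CPM in control libraries. Its fall (log2 fold change -0.21, SE 0.0643, edgeR adjusted p = 0.0131) was lost with library size alone (adjusted p = 0.118), without control replicate 2 (0.113) and without oeALKBH5 replicate 2 (0.103). HNRNPA3 (log2 fold change -0.11) and HNRNPAB (log2 fold change 0.01) did not pass. HNRNPA3 was called lower with the replicate block (edgeR adjusted p = 0.0378) and without oeALKBH5 replicate 3 (0.0071).

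HNRNPL and HNRNPM fell together. HNRNPL (chr19:38836388-38852347, minus strand), which binds CA-rich elements, had 400.3, 410.1 and 423.0 CPM in oeALKBH5 libraries, against 518.0, 505.8 and 499.6 CPM in control libraries (log2 fold change -0.30, SE 0.0436, edgeR adjusted p = 1.44e-05). Exons of AC008982.1 on the same strand cover 22.3% of the exonic bases of HNRNPL. HNRNPM (chr19:8444767-8489114, plus strand), which binds GU-rich intronic motifs, had 284.1, 310.1 and 345.7 CPM in oeALKBH5 libraries, against 382.7, 392.6 and 393.4 CPM in control libraries (log2 fold change -0.31, SE 0.0574, edgeR adjusted p = 0.000292). In both, every oeALKBH5 library lay under every control library, and the spread of HNRNPM within oeALKBH5 (SD 30.9 CPM) was wider than within control (SD 5.94 CPM). HNRNPLL, the relative of HNRNPL known from activated T cells, did not pass (log2 fold change -0.04). HNRNPDL, which lies next to HNRNPD on chromosome 4, had 248.3, 274.3 and 282.5 CPM in oeALKBH5 libraries, against 288.3, 311.7 and 293.0 CPM in control libraries. Its fall (log2 fold change -0.15, SE 0.0516, edgeR adjusted p = 0.0242) was lost with library size alone (adjusted p = 0.275), without control replicate 2 (0.15) or 3 (0.051) and without oeALKBH5 replicate 1 (0.0795, with a log2 fold change of -0.09).

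The HNRNPU family rose in part. HNRNPU, a scaffold protein that binds RNA and chromatin, had 526.6, 562.3 and 612.5 CPM in oeALKBH5 libraries, against 495.5, 510.4 and 508.9 CPM in control libraries (log2 fold change 0.17, SE 0.0507, edgeR adjusted p = 0.0114). Leaving out control replicate 1 ended the call (adjusted p = 0.0636), and leaving out oeALKBH5 replicate 3 brought the log2 fold change to 0.11. HNRNPUL2 had 188.2, 194.6 and 214.6 CPM in oeALKBH5 libraries, against 173.2, 175.0 and 178.1 CPM in control libraries (log2 fold change 0.18, SE 0.0506, edgeR adjusted p = 0.00647). The readthrough gene HNRNPUL2-BSCL2 shares 45.7% of the exonic bases of HNRNPUL2. HNRNPUL1 was higher in every oeALKBH5 library than in any control library, but its log2 fold change of 0.10 did not pass (edgeR adjusted p = 0.0671). It was called higher in DESeq2 (adjusted p = 0.0446), with library size alone (0.00149), with a mean count of at least 50 (0.0402), with the replicate block (0.0397), without oeALKBH5 replicate 3 (0.0418) and in FPKM (limma adjusted p = 0.00352).

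HNRNPC, which binds uridine tracts, had 617.3, 653.7 and 705.2 CPM in oeALKBH5 libraries, against 630.8, 624.1 and 631.9 CPM in control libraries. The groups overlapped, and it did not pass (log2 fold change 0.07, SE 0.0485, edgeR adjusted p = 0.281), but it was called higher with library size alone (adjusted p = 0.013), without oeALKBH5 replicate 1 (0.0284) and in FPKM (limma adjusted p = 0.0311). HNRNPK, the poly(C)-binding member, behaved alike (log2 fold change 0.07, edgeR adjusted p = 0.238, and 0.0196 without oeALKBH5 replicate 1). HNRNPD, also called AUF1, had 229.1, 261.7 and 314.8 CPM in oeALKBH5 libraries, against 293.5, 298.1 and 311.4 CPM in control libraries. It did not pass (log2 fold change -0.16, edgeR adjusted p = 0.292), and oeALKBH5 replicate 3 lay above all control libraries while the other 2 lay under them. Without that replicate its log2 fold change was -0.29 (adjusted p = 7.85e-05). With the replicate block HNRNPD was also called lower (edgeR adjusted p = 0.0339).

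In 13 of the 21 tested hnRNP genes, the lowest oeALKBH5 level was that of replicate 1 and the highest that of replicate 3. The share of all tested genes with this order was not counted, so it cannot be called particular to hnRNP genes. The sum of SR genes (2364, 2468 and 2545 CPM in oeALKBH5) had the same order. So did that of U2AF genes (264.1, 265.0 and 266.3 CPM in oeALKBH5), but not in FPKM (125.9, 128.2 and 120.6 FPKM). The U2AF sum also includes U2AF1, whose counts were shared with a near-identical gene entry. The sums of SF3, PTBP, and RBFOX2 and MBNL genes did not have this order. The summed level of hnRNP genes was 7821, 8316 and 8863 CPM in oeALKBH5 libraries (SD 521), against 8171, 8426 and 8367 CPM in control libraries (SD 133). The family sum overlapped between the groups, and its spread was wider in oeALKBH5. Replicate 1 was also the library with the highest ALKBH5 level, 168.8 CPM, and replicate 3 the one with the lowest, 110.4 CPM. Whether the 2 measures are related was not tested, with 3 libraries.

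**Figure D2:**
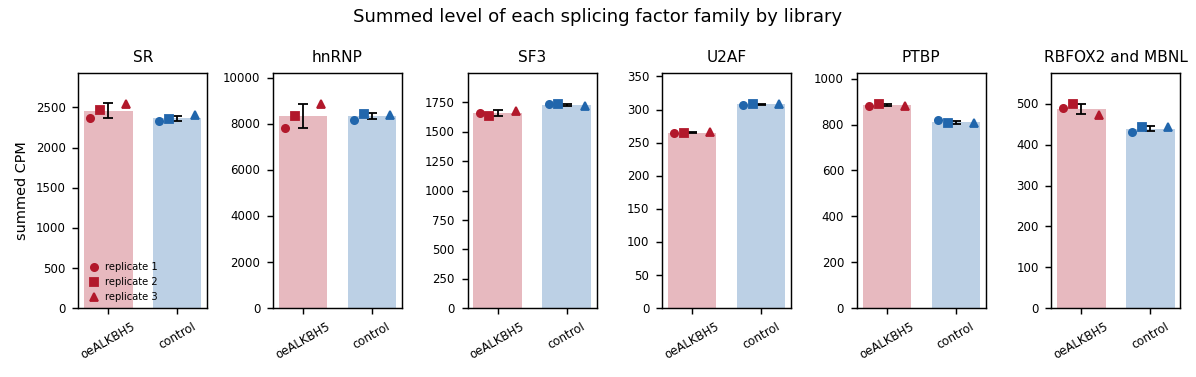
Summed CPM of each family (vertical axis, from 0) in oeALKBH5 and control libraries. Bars are means of 3 libraries, error bars are SD, and marker shapes give the replicate number. The U2AF sum includes U2AF1 but not the near-identical gene entry that shared its counts. The hnRNP sums run from 7821 to 8863 CPM in oeALKBH5 and from 8171 to 8426 CPM in control, whereas the PTBP sums (880.5 to 890.2 CPM in oeALKBH5 and 805.1 to 818.7 CPM in control) are apart.

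Of the 9 SF3 genes, 0 rose, 3 fell (SF3B5, SF3A3 and SF3B1) and 6 did not pass in edgeR (33.3% called, beside 42.8% of all genes tested). Their median log2 fold change was -0.04. At an unadjusted p under 0.05, 1 was higher (SF3A2), and DESeq2 called 0 higher. Under library size alone 3 were higher (SF3A2, SF3B3 and SF3B4) and 2 lower, beside 30.1% and 14.4% of all genes. In FPKM 2 were higher and 2 lower, beside 29.4% and 16.5%. The balance of the family thus depended on the scaling, while SF3B5 and SF3A3 were lower in all of these. SF3B5 (chr6:144094881-144095573, minus strand), a small subunit of SF3B, had 53, 46.4 and 50.6 CPM in oeALKBH5 libraries, against 73.7, 66.3 and 69.7 CPM in control libraries. The groups were well apart and the level was 1.4-fold lower (log2 fold change -0.48, SE 0.0595, edgeR adjusted p = 2.38e-06). SF3A3 (chr1:37956975-37990921, minus strand), a subunit of SF3A, had 123.4, 133.8 and 136.3 CPM in oeALKBH5 libraries, against 162.7, 161.1 and 171.3 CPM in control libraries (log2 fold change -0.33, SE 0.0496, edgeR adjusted p = 2.4e-05).

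SF3B1 (chr2:197389784-197435091, minus strand), the branch-point-binding scaffold that is often mutated in blood cancers, had 260.7, 264.3 and 260.3 CPM in oeALKBH5 libraries, against 278.0, 292.7 and 293.8 CPM in control libraries. It fell (log2 fold change -0.14, SE 0.0441, edgeR adjusted p = 0.0151). The call was lost with library size alone (log2 fold change -0.06, adjusted p = 0.278) and without control replicate 2 (0.0779) or 3 (0.087). SF3A2, the most abundant SF3 gene per length (139.9 FPKM in oeALKBH5 and 122.3 FPKM in control), had 220.2, 209.1 and 211.9 CPM in oeALKBH5 libraries, against 202.7, 205.1 and 184.7 CPM in control libraries. Its groups did not overlap, but it did not pass (log2 fold change 0.11, SE 0.049, edgeR adjusted p = 0.0666). It was called higher with library size alone (edgeR adjusted p = 0.00323) and in FPKM (limma adjusted p = 0.0079). With TMM scaling, edgeR called it higher with a mean count of at least 50 (adjusted p = 0.0443), with the replicate block (0.0326) and without oeALKBH5 replicate 3 (0.0495). PLEKHJ1 on the opposite strand covers 20.3% of its exonic bases. SF3B3, the subunit next to SF3B1 in the core, had a log2 fold change of 0.05 (SE 0.0426) and did not pass. SF3B2 did not pass either, but was called lower without oeALKBH5 replicate 3 (edgeR adjusted p = 0.0335). Differences between subunits were not tested.

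U2AF2 (chr19:55654146-55674715, plus strand), the large U2AF subunit that binds the polypyrimidine tract, had 253.2, 255.3 and 265.6 CPM in oeALKBH5 libraries, against 303.2, 291.9 and 295.7 CPM in control libraries. It fell by 0.20 on the log2 scale (SE 0.0441, edgeR adjusted p = 0.000981), with the groups apart, and by 0.12 with library size alone. The small subunit U2AF1, which reads the AG of the 3′ splice site, could not be measured alone. It was credited with 11, 9.7 and 0.626 CPM in oeALKBH5 libraries, against 3.98, 16.6 and 12.2 CPM in control libraries (log2 fold change -0.62, SE 0.957, edgeR adjusted p = 0.653). Most reads of the pair were given to LOC102724594 (synonym U2AF1L5), a near-identical gene entry on the same chromosome of the reference. That entry had 96.7, 98.6 and 116.8 CPM in oeALKBH5 libraries, against 124.5, 103.9 and 117.3 CPM in control libraries. The swings of U2AF1 between replicates of 1 group were thus many-fold, and those of the pair were not. With both entries added into 1 row before the fit, a choice made after the values were seen, the level was 107.6, 108.3 and 117.4 CPM in oeALKBH5 libraries, against 128.5, 120.5 and 129.5 CPM in control libraries. The merged row was lower in oeALKBH5 (log2 fold change -0.18, SE 0.0504, edgeR adjusted p = 0.00622). With this row in place of U2AF1, 13 members were higher and 14 lower.

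Among the tissue-dependent regulators, 2 of the 3 PTBP genes rose and 0 fell. Of the 4 RBFOX2 and MBNL genes, 2 rose and 0 fell. These are few genes, beside 20.8% higher and 22.0% lower of all genes tested. The counts were the same with library size alone (beside 30.1% and 14.4% of all genes) and in FPKM (beside 29.4% and 16.5%). PTBP3 had 200.3, 198.0 and 189.1 CPM in oeALKBH5 libraries, against 168.7, 181.9 and 176.1 CPM in control libraries (log2 fold change 0.16, SE 0.0469, edgeR adjusted p = 0.0103). PTBP1, the repressor of neuronal and muscle exons that is the most abundant PTBP gene here, had 668.3, 676.0 and 677.4 CPM in oeALKBH5 libraries, against 634.9, 607.4 and 617.9 CPM in control libraries (log2 fold change 0.12, SE 0.0424, edgeR adjusted p = 0.0273). The groups did not overlap in either gene. Without control replicate 1 the call of PTBP3 was lost (adjusted p = 0.069), and that of PTBP1 was lost without control replicate 2 (0.138) or 3 (0.112) and without oeALKBH5 replicate 2 (0.0615). With library size alone the log2 fold changes were 0.24 for PTBP3 and 0.20 for PTBP1. PTBP2, the paralog known from neurons, was at 4.36 FPKM in oeALKBH5 and 4.3 FPKM in control and did not pass (log2 fold change -0.0018).

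MBNL2 (chr13:97221434-97394120, plus strand), a zinc-finger regulator of developmental exon switches, had 62.2, 56.9 and 52.4 CPM in oeALKBH5 libraries, against 43.5, 45.5 and 43.7 CPM in control libraries. It rose 1.29-fold (log2 fold change 0.37, SE 0.0623, edgeR adjusted p = 8.31e-05). MBNL3 (chrX:132369317-132489968, minus strand), the most abundant of these 4 genes per length, had 228.6, 240.0 and 233.7 CPM in oeALKBH5 libraries, against 183.6, 187.8 and 187.4 CPM in control libraries (log2 fold change 0.33, SE 0.0442, edgeR adjusted p = 6.76e-06). All oeALKBH5 libraries exceeded all control libraries in both genes, and both calls were kept under every alternative of the gene test. MBNL1 (log2 fold change -0.07, edgeR adjusted p = 0.285) and RBFOX2 (log2 fold change -0.10, edgeR adjusted p = 0.0875) did not pass, although RBFOX2 was lower in every oeALKBH5 library (114.4 to 121.0 CPM) than in any control library (124.1 to 126.4 CPM).

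**Figure D3:**
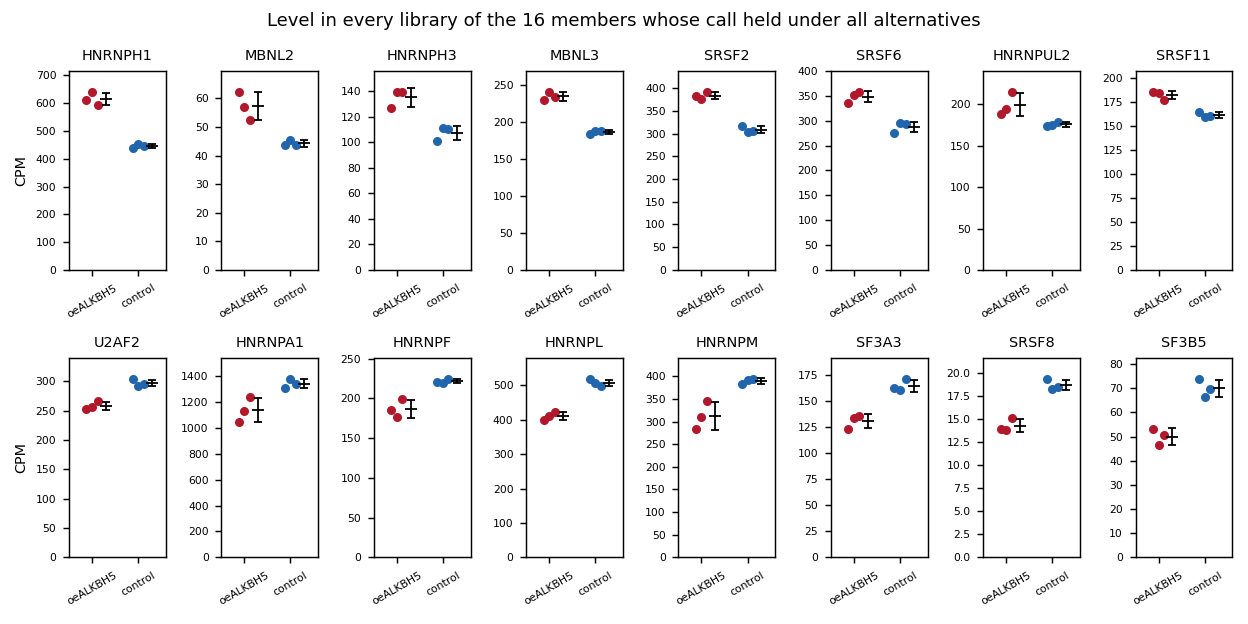
CPM (vertical axis, from 0) in every oeALKBH5 and control library of the 16 members whose call was kept under every alternative of the gene test. Points are libraries, and the black marks beside them are the mean and SD of 3. The 8 genes of the upper row were higher in oeALKBH5 (HNRNPH1 615.0 against 445.7 CPM on average) and the 8 of the lower row were lower (SF3B5 50 against 69.9 CPM on average).

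Whether the cells used other transcripts of the splicing factors was asked next. The edgeR diffSpliceDGE test called no change in the share that a member transcript takes of its gene's counts: 0 of 296 transcripts of 40 members were called, beside 0.0655% of all 41249 transcripts tested (0.0315% higher and 0.0339% lower), and the lowest adjusted p was 0.219. At an unadjusted p under 0.05 there were 5, of which 4 belonged to SRSF11 and 1 to MBNL1, all with shares of under 13% in every library. With limma's diffSplice 1 transcript was called, beside 0.434% of all transcripts, and 26 had an unadjusted p under 0.05. On simulated data with the spread between replicates seen for transcripts, both tests missed nearly all changes, large ones included, so the count of 0 does not show that shares were unchanged. Shares of estimated counts varied between replicates as much as between groups. Among the 153 member transcripts with a mean share of 5% or more in a group, the median absolute difference between the group means was 2.48 percentage points and the median of the larger group SD was 3.22 points. In 25 of these (16.3%, beside 11.7% of all such transcripts) the groups did not overlap, 10 being higher and 15 lower in oeALKBH5. The most abundant transcript was the same in both groups in 34 of the 42 members with several transcripts.

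The transcript called by limma was NM_001098208.1 of HNRNPF. It made up 42.9, 40.2 and 37.9% of the gene's counts in oeALKBH5 libraries, against 28.6, 24.3 and 26.6% in control libraries (limma diffSplice adjusted p = 0.0373, diffSpliceDGE adjusted p = 1). The groups were apart, and NM_001098208.1 was the leading HNRNPF transcript in oeALKBH5, whereas NM_001098204.1 led in control (27, 28.3 and 29.4% in oeALKBH5 libraries, against 33.4, 29.3 and 34.1% in control libraries). RefSeq transcripts of HNRNPF share their coding sequence, so this is a difference in untranslated exons. Shifts in PTBP3 and TRA2A, called by neither tool, were among the largest of the rest.

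PTBP3 NM_001163788.4 took 22.7, 23.4 and 19.9% of the gene in oeALKBH5 libraries, against 40.5, 40.1 and 27.0% in control libraries. TRA2A NM_013293.5 took 61.0, 68.0 and 70.8% in oeALKBH5 libraries, against 77.2, 78.7 and 75.8% in control libraries, and TRA2A NM_001362761.2 took 16.6, 21.8 and 17.5% in oeALKBH5 libraries, against 10.4, 9.01 and 11.1% in control libraries. These groups did not overlap, and the adjusted p was 1 for each in diffSpliceDGE and 0.564, 0.485 and 0.396 in limma. The tables hold protein-coding transcripts only (accessions in NM and XM), so the noncoding transcripts with poison exons, through which SR genes are known to limit their own mRNA, were not analysed here.

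When transcripts were tested one by one for their level, 1 of 309 member transcripts was higher and 1 lower in edgeR, beside 1.01% of all 45502 transcripts (0.281% higher and 0.732% lower), and 46 had an unadjusted p under 0.05. DESeq2 called 17 higher and 20 lower, beside 6.37% of all transcripts it tested. On simulated transcripts DESeq2 made many false calls, while edgeR made none and missed most of the changes. Both edgeR calls were the main transcript of a gene called in the same direction. SRSF2 NM_001195427.2 was higher (log2 fold change 0.38, SE 0.0353, edgeR adjusted p = 0.0192) and made up 88.6, 87.0 and 86.3% of the gene in oeALKBH5 libraries, against 85.0, 82.4 and 84.3% in control libraries. HNRNPL NM_001005335.2 was lower (log2 fold change -0.37, SE 0.0422, edgeR adjusted p = 0.0326), with 76.0, 73.1 and 67.2% of the gene in oeALKBH5 libraries, against 77.3, 75.2 and 74.3% in control libraries. Both calls were lost with any 1 library left out (adjusted p = 0.0725 to 0.141 for SRSF2 and 0.0735 to 0.157 for HNRNPL).

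There were 6 members with RefSeq isoforms that differ by 1 coding segment within the limits searched, and their sequences are shown because they are the protein differences that the transcript shares report on. They were read from GENCODE 29 transcripts on GRCh38, for RefSeq accessions matched without version (148 of 243 curated member transcripts). The segments are in HNRNPA2B1 (chr7:26197831-26197866, minus strand, exon 2 of 12), HNRNPAB (chr5:178210132-178210272, plus strand, exon 7 of 8), HNRNPH3 (chr10:68338643-68338687, plus strand, part of exon 4), HNRNPM (chr19:8465363-8465479, plus strand, part of exon 6), HNRNPU (chr1:244863617-244863673, minus strand, part of exon 1) and PTBP1 (chr19:805492-805569, plus strand, exon 9 of 15). They are 36, 141, 45, 117, 57 and 78 nucleotides long, in that order, and all keep the reading frame. Capitals mark the segment that one isoform has and the other lacks, and lower case the coding bases on either side in the longer isoform, 5′ to 3′.
HNRNPA2B1: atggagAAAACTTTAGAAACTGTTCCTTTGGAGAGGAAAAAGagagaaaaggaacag
HNRNPAB: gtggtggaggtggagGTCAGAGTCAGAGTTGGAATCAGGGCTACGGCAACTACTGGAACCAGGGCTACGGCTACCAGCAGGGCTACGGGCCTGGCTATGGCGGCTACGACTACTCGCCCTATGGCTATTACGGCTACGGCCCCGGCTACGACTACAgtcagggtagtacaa
HNRNPH3: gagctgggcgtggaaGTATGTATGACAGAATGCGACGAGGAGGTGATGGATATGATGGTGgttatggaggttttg
HNRNPM: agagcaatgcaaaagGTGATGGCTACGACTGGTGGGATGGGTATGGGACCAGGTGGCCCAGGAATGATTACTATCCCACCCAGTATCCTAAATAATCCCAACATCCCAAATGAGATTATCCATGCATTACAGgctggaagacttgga
HNRNPU: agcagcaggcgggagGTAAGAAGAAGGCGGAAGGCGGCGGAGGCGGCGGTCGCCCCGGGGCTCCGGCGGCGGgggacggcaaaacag
PTBP1: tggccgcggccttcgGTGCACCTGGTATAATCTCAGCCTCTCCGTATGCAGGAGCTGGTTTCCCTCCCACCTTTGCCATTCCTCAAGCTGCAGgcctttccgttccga

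The 12-residue segment of HNRNPA2B1 is the one that sets B1 apart from A2. Among counts of the transcripts compared, the form with it took 19.7, 40.1 and 37.1% in oeALKBH5 libraries, against 52.7, 7.8 and 56.7% in control libraries. Replicates of 1 group thus differed by more than the groups did (32.3 ± 11 and 39.1 ± 27.2%, SD, n = 3 each, exact permutation p = 0.6, two-sided), and the transcripts compared held 49.5 to 52.7% of the gene's counts. In PTBP1 the segment is the alternative exon between the second and the third RNA recognition motif, which is known to alter the repressor's strength in other human and mouse cells. It was present in 91, 93.9 and 90% in oeALKBH5 libraries, against 89.4, 91.8 and 89.7% in control libraries (exact permutation p = 0.5), and the groups overlapped.

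The glycine- and tyrosine-rich segment of HNRNPAB was present in 70.2, 70.2 and 74.8% in oeALKBH5 libraries, against 70, 70.4 and 78.7% in control libraries. That of HNRNPM was present in 75.3, 66.6 and 69.8% in oeALKBH5 libraries, against 76.3, 74.9 and 71.4% in control libraries. In HNRNPU the shares were 30.3, 24.9 and 31.3% in oeALKBH5 libraries, against 29.9, 35.6 and 30.1% in control libraries. In HNRNPH3 they were 56.4, 60.3 and 52.9% in oeALKBH5 libraries, against 55.1, 58.7 and 57.6% in control libraries. The groups overlapped in all 6 segments, with exact permutation p values of 0.3 to 0.9 (Benjamini-Hochberg adjusted over the 6, 0.84 to 0.9), where 3 libraries against 3 cannot go below 0.1. These p values say nothing of whether the forms shifted.

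**Figure D4:**
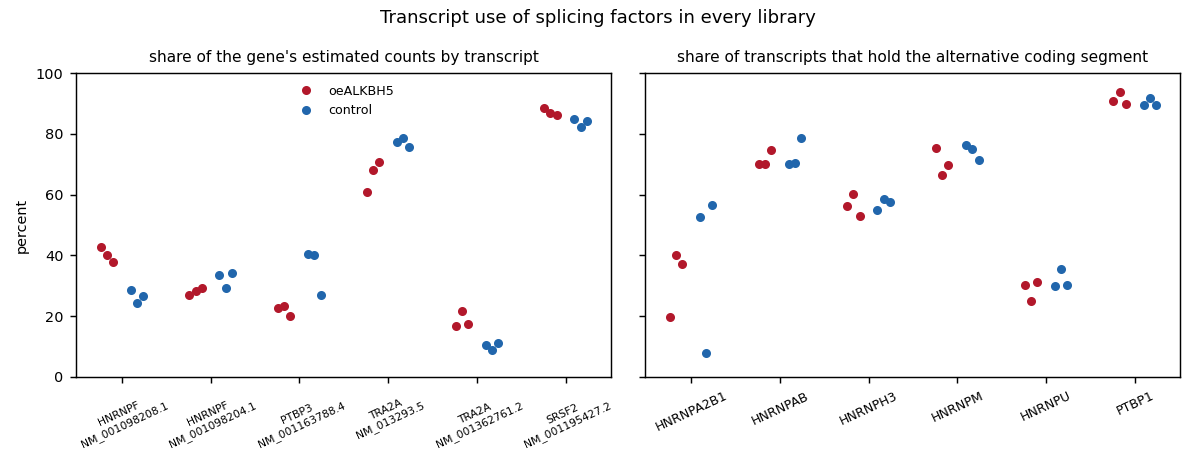
Share of the gene's estimated counts in percent for 6 transcripts (left) and percent of compared transcripts that hold the alternative coding segment for 6 genes (right), with 1 point per library, oeALKBH5 in red left of control in blue. HNRNPF NM_001098208.1 lies at 37.9 to 42.9% in oeALKBH5 and 24.3 to 28.6% in control, and HNRNPA2B1 spreads from 7.8 to 56.7% within control.

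Sequence features of the called members were compared as medians, with no test. For the principal transcript of each gene in GENCODE 29, the median length was 3667 nt for the 13 higher members, 2755 nt for the 13 lower ones and 2489 nt for the 27 that did not pass, beside 3948 nt for all higher genes and 2424 nt for all lower genes. The median GC content was 41.1% in higher members and 48.5% in lower members, with overlapping values (36.8 to 57.8% in higher and 41 to 62% in lower members), beside 51.4% in all higher genes and 49.1% in all lower genes. The motif GGACT, a common form of the m6A consensus, was counted on the sense strand of the spliced transcript. It occurred at a median of 0.752 per kb in higher members and 0.966 per kb in lower members, beside 0.956 and 0.952 per kb in all higher and all lower genes. At least 1 copy was found in 92.3% of higher and 92.3% of lower members and in 91.4% of all tested genes. These are descriptions of sequence, and no m6A was measured.

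The rest of the splicing machinery was read from the same fit, in 11 lists with 155 genes, of which 154 were in the tables and 148 were tested. Of these 26 rose and 42 fell (45.9% called, beside 42.8% of all genes tested), and with library size alone 48 were higher and 24 lower, beside 30.1% and 14.4% of all genes. The counts by list below are small and stand against that background. The rings of small proteins around the snRNAs held no gene that rose: 0 higher and 5 lower of 7 Sm genes (median log2 fold change -0.18), and 0 higher and 5 lower of 7 LSm genes (median -0.28), with 0 higher and 2 and 4 lower with library size alone. At an unadjusted p under 0.05 and in DESeq2, likewise 0 were higher in the Sm, LSm, tri-snRNP, second step and minor spliceosome lists. Among them SNRPD3 had 155.2, 164.3 and 171.8 CPM in oeALKBH5 libraries, against 200.7, 203.8 and 202.1 CPM in control libraries (log2 fold change -0.30, SE 0.0473, edgeR adjusted p = 3.56e-05). LSM3 had 130.4, 155.4 and 161.5 CPM in oeALKBH5 libraries, against 197.5, 193.3 and 194.2 CPM in control libraries (log2 fold change -0.39, SE 0.0633, edgeR adjusted p = 0.000148). Both were lower in every oeALKBH5 library. SNRPD2 (-0.17) and LSM7 (-0.31) also fell, and SNRPD2's call was lost with library size alone.

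Partners of the SF3 and U2AF proteins at the branch point gave 3 higher and 4 lower of 13. SNRPA1 (log2 fold change -0.37) and SNRPB2 (-0.27), the proteins A′ and B″ of the U2 snRNP, fell, while SF1 (0.16), which binds the branch point before U2, and DDX42 (0.17), an SF3B-associated helicase, rose. DDX42's call was lost without control replicate 2. The U1 list had 3 higher and 1 lower of 7, with rises in SNRNP70 (0.23) and LUC7L3 (0.18) and a fall in SNRPC (-0.23). Of 17 tri-snRNP genes 0 rose and 6 fell, PRPF6 (-0.34) and USP39 (-0.25) among them, but 3 were higher and 3 lower with library size alone. The list of PRPF19 complex and activation genes had 1 higher and 7 lower of 14 (1 and 5 with library size alone). PLRG1 (-0.31) and PRPF19 (-0.25) fell. The 1 gene higher, RBM22 (0.14), lost its call in DESeq2, in limma-voom, without a filter and with 3 of the libraries left out in turn. Of 9 genes for helicases and the second step, DHX35 (-0.19) was called, and of 9 minor spliceosome genes ZMAT5 (-0.62) and SCNM1 (-0.34) fell. DHX35's call was lost in DESeq2, with library size alone and without control replicate 1 or oeALKBH5 replicate 3.

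Kinases and coactivators that act on SR proteins held several rises. Of 11 kinases, phosphatases and importers of SR proteins, 5 rose and 1 fell (8 and 1 with library size alone). CLK1, which phosphorylates SR proteins in the nucleus, had 29.1, 28.5 and 27.8 CPM in oeALKBH5 libraries, against 21.5, 20.7 and 21.1 CPM in control libraries (log2 fold change 0.43, SE 0.066, edgeR adjusted p = 3.08e-05). CLK2 rose by a like amount (log2 fold change 0.41, edgeR adjusted p = 4.92e-06), and the phosphatase subunit PPP1CA fell (-0.22). The exon junction and SR-related list had 4 higher and 3 lower of 13 (6 and 0 with library size alone). The speckle coactivators SRRM2 (862.7, 779.3 and 704.1 CPM in oeALKBH5 libraries, against 580.2, 567.0 and 554.1 CPM in control libraries, log2 fold change 0.46, edgeR adjusted p = 1.22e-05) and SRRM1 (0.44) rose. SAP18 (-0.18) and ALYREF (-0.13) fell, and both calls were lost with library size alone, SAP18's also without control replicate 3 or oeALKBH5 replicate 2 and ALYREF's without any 1 control library or oeALKBH5 replicate 2. Of 41 other regulators 10 rose and 7 fell (16 and 3 with library size alone), with RBM25 (0.30) and SFPQ (0.24) higher and NONO (-0.26), the partner of SFPQ in paraspeckles, and EWSR1 (-0.24) lower. With library size alone the log2 fold changes of SNRPC, PPP1CA and EWSR1 were -0.15, -0.14 and -0.16.

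**Figure D5:**
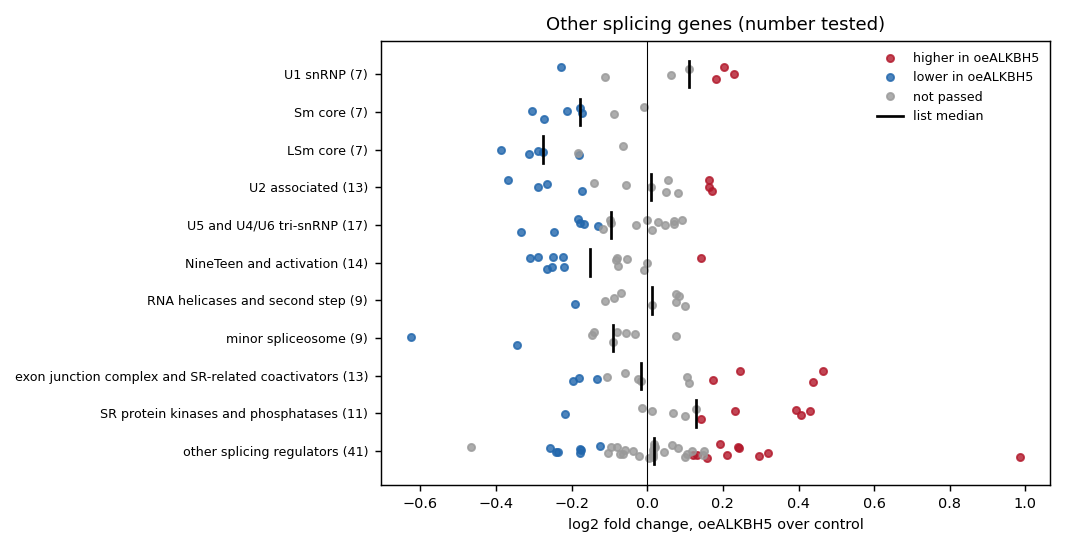
Log2 fold change, oeALKBH5 over control, of the 148 other splicing genes tested, by list, with 1 point per gene and a black line at the list's median (vertical scatter is for legibility). Red points were higher, blue points lower and grey points did not pass. The Sm and LSm lists hold no red point, with medians of -0.18 and -0.28.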

How the data were processed

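Messenger RNA of Huh-7 cells was sequenced as 6 libraries. The authors deposited estimated counts and FPKM per RefSeq transcript. The tools, per the submitters' processing notes, were RSEM 1.2.8, Bowtie2 2.2.5 and HISAT2 2.1.0, on GRCh38.p13. What each did, which filters applied and whether counting used strand is not given in the sources used here. Transcripts were summed to genes by Entrez identifier, symbols came from a RefSeq table (GRCh38.p14), and summed estimated counts were rounded. The main test was edgeR 4.0.16 in R 4.3.3: TMM scaling, filterByExpr with a minimum of 10 counts, a robust quasi-likelihood F test on group alone, and Benjamini-Hochberg adjustment over all genes, with a threshold of 0.05. SE is the size of the log2 change divided by the root of F. FPKM values were tested with limma 3.58.1 on log2(FPKM + 1), for genes of at least 1 FPKM in 3 libraries, a scale that understates changes of low genes. Transcript shares were tested with diffSpliceDGE, and with limma's diffSplice as an alternative. DESeq2 1.42.0 was an alternative for genes and transcripts. The fits were tested on simulated data. The common biological coefficient of variation was 4.61%.

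Members, gene lists and tests were chosen with earlier results of these data known. Named with values in every library were up to 5 rises and 5 falls per family by size, HNRNPC, HNRNPA2B1, SRSF3 and the most abundant member of each family. From each other list up to 2 rises and 2 falls were named by p. HNRNPDL, HNRNPA0, HNRNPD, HNRNPH2, U2AF1, genes with overlapping exons, the named transcripts and the coding segments were chosen after their values were seen. Coordinates and overlaps of exons come from GENCODE 29 on GRCh38. Figures were drawn with matplotlib 3.10.9.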

Additional observations from a re-analysis of the deposited data

How the results depend on the processing

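Gene calls of the splicing factors stood at 13 higher and 13 lower. Without each library in turn they ranged from 10 to 15 higher and from 9 to 18 lower. With library size alone 8 were lower. With the replicate block 15 were higher and 16 lower. Whether same-numbered libraries were prepared as pairs is not stated. Over all tested genes, their deviations from the group mean correlated at 0.0171, 0.0232 and 0.0127. Such values show little shared deviation, but cannot show how the libraries were prepared. ALKBH5 itself did not pass with the block (log2 fold change 0.89, adjusted p = 0.0538). In FPKM, 18 higher and 8 lower became 15 to 22 and 6 to 10 without each library. For transcripts, 1 higher and 1 lower became 17 and 20 in DESeq2, 2 and 0 with library size alone, 3 and 3 with a mean count of at least 50, 0 and 0 with the replicate block, and 0 higher and 0 to 1 lower without each library. For shares, 0 and 0 became 1 higher with limma diffSplice and stayed 0 and 0 with the replicate block and without each library. The cause of these differences was not tested. With 3 libraries a group and this spread between replicates, the edgeR transcript test and both share tests missed most changes on simulated data, large ones included. DESeq2 recovered 66% of simulated 4-fold transcript changes, but with 968 false calls.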
